A study of Homo sapiens with 4 samples.

Results

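The cyclin-dependent kinase inhibitor genes were followed in human oral squamous carcinoma cell lines given the DNA-demethylating drug decitabine. All 7 genes of the CIP/KIP and INK4 families, CDKN1A, CDKN1B, CDKN1C, CDKN2A, CDKN2B, CDKN2C and CDKN2D, were taken by gene name from the deposited table of 51103 genes. Polyadenylated RNA was sequenced from CAL27 and from SCC15, lines catalogued as tongue carcinomas, each grown for 48 h with 10 µM decitabine (5-aza-2'-deoxycytidine, labelled DAC or 5-AZA-CdR) or with its solvent DMSO. The 4 groups were thus decitabine-treated CAL27, DMSO-treated CAL27, decitabine-treated SCC15 and DMSO-treated SCC15, with 1 library each, so no value has a replicate culture and the other line is the replicate of the treatment. Each line is a single cultured line and stands for itself alone.

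Cyclin-dependent kinases drive cells from the resting and growth phase into DNA replication and division once a cyclin has bound them. The INK4 proteins (p16, p15, p18 and p19) bind CDK4 and CDK6 and keep the D cyclins from activating them. The CIP/KIP proteins (p21, p27 and p57) bind cyclin-kinase complexes more widely, above all those of CDK2. Loss of p16, by deletion, mutation or promoter methylation, is a known step of head and neck squamous carcinoma, and p21 is induced when DNA is damaged. Decitabine enters new DNA in place of deoxycytidine and captures the methylating enzymes there, and CG dinucleotides lose their methyl groups as cells divide.

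Libraries held between 14524461 and 17583706 counted reads. The libraries labelled SCC15 went against their label as squamous epithelium. Of 9 squamous markers, 2 reached 10 reads in decitabine-treated and 1 in DMSO-treated SCC15, against 8 and 7 in CAL27. KRT14, KRT6A and DSG3 had 0 reads in both SCC15 libraries. In CAL27, with decitabine and DMSO, KRT6A had 189 and 248 reads and DSG3 had 268 and 279. KRT14, at 15 and 1 reads, and KRT13, at 0 and 1, were low in CAL27 as well. The summed level of the 9 markers was 3.70 and 1.42 CPM (counts scaled to a common library size) in the decitabine and DMSO libraries labelled SCC15, and 1125 and 1020 CPM in those of CAL27. Neuroendocrine markers (CHGA, SYP, NCAM1 and INSM1) summed to 232 and 123 CPM in the libraries labelled SCC15, against 9.85 and 6.20 CPM in CAL27, with CHGA at 2429 and 1040 reads against 0 and 0, and INSM1 at 0 in both SCC15 libraries. SYP had 1438 and 674 reads there, against 19 and 10 in CAL27. NCAM1 was read in both lines, with 215 and 111 reads in the libraries labelled SCC15, against 126 and 76 in CAL27. The libraries labelled SCC15 are called SCC15-labelled below, and each treatment result is also given for CAL27 alone. Simple epithelial markers summed to 2082 and 2466 CPM in CAL27 with decitabine and DMSO, and to 2275 and 1497 CPM in the SCC15-labelled line. KRT8 and KRT18 carried these sums; the epithelial adhesion genes were nearly absent from the SCC15-labelled line, with 39 and 31 reads of EPCAM, against 4585 and 4368 in CAL27, and 1 and 4 reads of CDH1, against 3911 and 2727. Other measures moved with the drug. Mitochondrial genes took 4.28% of reads with decitabine against 7.24% with DMSO in CAL27, and 1.52% against 7.60% in the SCC15-labelled line. The 5 fibroblast markers summed to 56.5 against 19.9 CPM in CAL27 and 78.2 against 28.99 CPM in the SCC15-labelled line. The part of these measures in the results below was not tested.

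The promoters of the members are shown because CG dinucleotides are where the drug's target, DNA methylation, sits. RefSeq start regions (GRCh38.p14, 250 bases before to 50 after a start) were at hand for 6 of the 7 genes, 9 in all, and not for CDKN1C. The starts of the gene with the largest response, of the gene with the largest CAL27 response, and of CDKN2A, whose paired starts encode different proteins, are printed 5′ to 3′ on the gene's strand with every CG in capitals.
CDKN1A, chr6:36678464-36678763, plus strand: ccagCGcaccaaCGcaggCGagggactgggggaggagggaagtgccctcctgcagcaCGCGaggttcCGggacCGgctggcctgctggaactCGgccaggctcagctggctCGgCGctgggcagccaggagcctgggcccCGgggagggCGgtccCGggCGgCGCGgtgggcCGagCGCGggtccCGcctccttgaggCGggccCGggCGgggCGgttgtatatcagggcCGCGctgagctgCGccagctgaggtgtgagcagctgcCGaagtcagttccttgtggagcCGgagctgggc
CDKN2D, chr19:10568930-10569229, minus strand: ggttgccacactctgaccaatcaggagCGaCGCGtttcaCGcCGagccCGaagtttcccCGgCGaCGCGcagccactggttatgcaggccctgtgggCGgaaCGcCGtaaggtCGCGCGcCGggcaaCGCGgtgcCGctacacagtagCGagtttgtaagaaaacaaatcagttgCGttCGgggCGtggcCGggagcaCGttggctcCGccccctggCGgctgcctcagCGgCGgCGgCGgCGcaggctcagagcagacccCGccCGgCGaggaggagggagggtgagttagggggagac
CDKN2A, start of the p16 transcript, chr9:21974808-21975107, minus strand: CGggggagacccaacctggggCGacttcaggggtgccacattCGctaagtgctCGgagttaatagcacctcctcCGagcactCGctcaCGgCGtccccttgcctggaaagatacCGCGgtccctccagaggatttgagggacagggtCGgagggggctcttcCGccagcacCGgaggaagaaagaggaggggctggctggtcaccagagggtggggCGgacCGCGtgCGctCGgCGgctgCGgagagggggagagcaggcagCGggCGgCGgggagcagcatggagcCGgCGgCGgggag
CDKN2A, start of the ARF transcript, chr9:21995275-21995574, minus strand: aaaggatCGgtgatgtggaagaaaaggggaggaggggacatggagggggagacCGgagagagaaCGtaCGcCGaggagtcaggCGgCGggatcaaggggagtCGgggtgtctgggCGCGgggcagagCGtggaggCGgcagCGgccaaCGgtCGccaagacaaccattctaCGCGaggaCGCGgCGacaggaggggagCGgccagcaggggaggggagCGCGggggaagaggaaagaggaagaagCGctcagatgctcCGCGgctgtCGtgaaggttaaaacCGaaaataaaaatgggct
They held 29 CG dinucleotides (CDKN1A), 36 (CDKN2D), 26 (p16 start) and 28 (ARF start), against a median of 14 and an upper quartile of 28 over 35116 promoters of the same length. CDKN1B had 29 and CDKN2B 25. CDKN2C had 3 starts that differed, with 8, 37 and 11. The GC box (GGGCGG, searched on both strands, also as CCGCCC), whose letters include a CG, was found in 7 of the 9 windows and 4 times in that of CDKN1A, against 45.0% of all such promoters with at least 1. The TATA sequence TATAAA, searched on both strands, was in 0 of the 9 and in 11.5% of all. These letters say nothing of methylation in these cells, which was not analysed here.

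Levels per length were compared as FPKM (reads scaled by gene length and library size, as deposited). The order of the genes depends on the length used: the deposited FPKM imply 4329 bases for CDKN2A and 3050 for CDKN1A, while the longest GENCODE transcripts have 1283 and 2267 bases. By the deposited values, in both CAL27 libraries CDKN1A, which encodes p21, stood highest of the 7, with 23.6 FPKM under decitabine and 12.9 under DMSO. CDKN1B, which encodes p27, was next with 16.4 and 10.5 FPKM, then CDKN2A with 14.0 and 8.94 FPKM. With the longest transcript as length (chosen after seeing the data), CDKN2A led in CAL27 as well, with 47.4 and 30.2 FPKM, against 31.8 and 17.3 FPKM of CDKN1A, and no other gene but CDKN1B changed its place there. By the deposited values, in CAL27 under DMSO the counting intervals of neighbours in this order overlapped for CDKN1B (9.54 to 11.6 FPKM) and CDKN2A (8.21 to 9.71), and for CDKN2A and CDKN2C (6.93 to 8.52). In the SCC15-labelled libraries CDKN2A led by either length, with 69.8 FPKM under decitabine and 44.9 under DMSO as deposited, and CDKN1B followed with 27.4 and 27.2 FPKM. CDKN2A alone made up 47.7% and 44.0% of the deposited FPKM summed over the 7 genes there (73.4% and 71.1% by longest transcript), while CDKN1A made up 30.3% and 27.7% in CAL27, against 9.23% and 2.36% in the SCC15-labelled line (25.9% and 23.3%, against 5.66% and 1.52%, by longest transcript). In decitabine-treated SCC15-labelled cells the deposited-length intervals of CDKN1A (12.5 to 14.5 FPKM), CDKN2B (12.5 to 14.2) and CDKN2D (11.4 to 14.1) overlapped. CDKN1C, which encodes p57, was last in every library, between 0.472 and 0.941 FPKM. The intervals cover counting error only, as PCR reads without molecular identifiers are not independent molecules, and fewer expressing cells cannot be told apart from less RNA per cell.

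**Figure D1:**
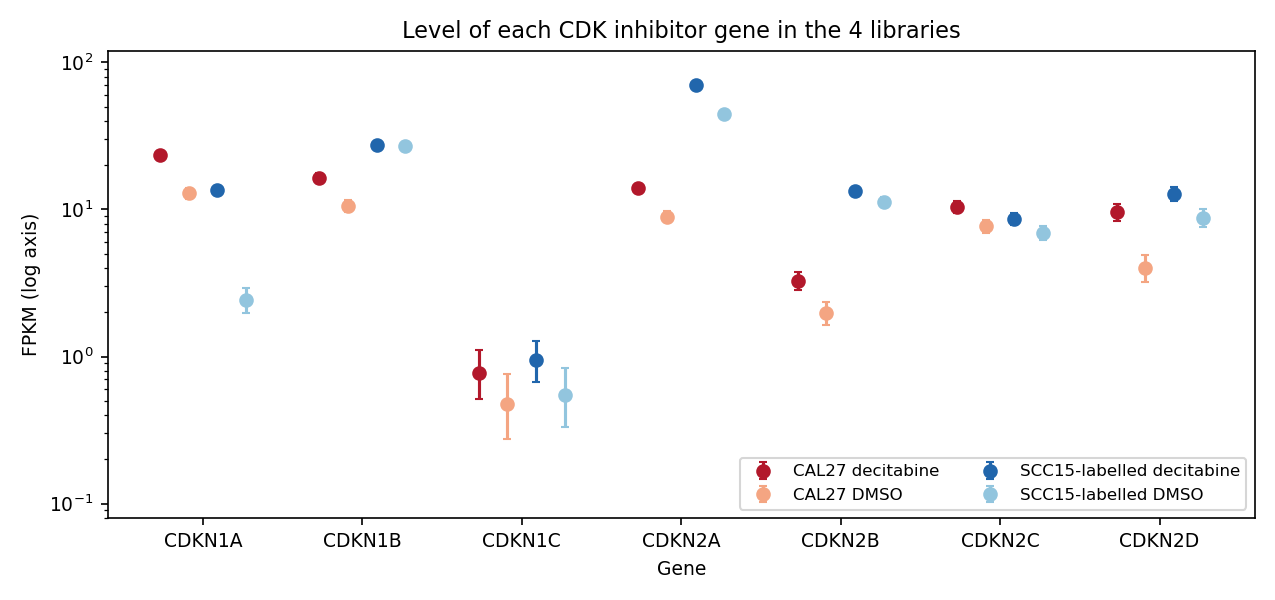
Deposited FPKM (log axis) of the 7 genes in each library, with exact Poisson 95% intervals that cover counting error only; 1 library per group. CDKN2A stands highest in the SCC15-labelled libraries (69.8 and 44.9 FPKM), and CDKN1A in the CAL27 libraries (23.6 and 12.9 FPKM) by the deposited lengths; scaled by longest transcript, CDKN2A leads in CAL27 too (47.4 and 30.2 FPKM).

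CDKN1A rose with decitabine across both lines. It had 1061 reads in decitabine-treated CAL27, against 570 in DMSO-treated CAL27, and 724 in decitabine-treated SCC15-labelled cells, against 109 in DMSO-treated ones. Both decitabine libraries were above the DMSO library of their line, and the DMSO library labelled SCC15 was the lowest of the 4. Scaled by TMM, a normalization that sets most genes level between libraries, this was 65.5 against 39.2 CPM in CAL27, a log2 ratio of 0.74 (95% counting interval 0.59 to 0.89). In the SCC15-labelled line it was 43.2 against 7.79 CPM, a log2 ratio of 2.45 (2.18 to 2.77), or 5.47-fold. The shared log2 fold change was 1.57 ± 0.34 (adjusted p = 0.0178 by edgeR's quasi-likelihood test with Benjamini-Hochberg adjustment over 15427 genes, higher in 2 of 2 lines). For edgeR the ± value is an SE derived here as the fold divided by the square root of the F statistic. CDKN1A was the single member to pass, where 0.544% of all tested genes passed as higher. No member passed as lower, against 0.0778% of genes. At an unadjusted p of 0.05, CDKN1A and CDKN2D were higher, as were 7.78% of genes, and no member was lower. In DESeq2 (1.60 ± 0.52, adjusted p = 0.22) and in limma on log2(FPKM + 1) (1.46 ± 0.30, adjusted p = 0.227) the call of CDKN1A was lost, and without the pairing by line the shared log2 fold of 1.21 ± 0.90 did not pass either.

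CDKN1A (ENSG00000124762) lies on chromosome 6 from 36676460 to 36687339 on the plus strand of GRCh38. Its response was larger in the SCC15-labelled line by 1.71 on the log2 scale, and 2.96% of the tested genes had a larger difference in that direction. The counting intervals of both ratios do not overlap, but with 4 libraries no degree of freedom is left to test whether the lines respond differently. Under DMSO the level was 5.03-fold higher in CAL27 than in the SCC15-labelled line, and under decitabine 1.52-fold higher, so that the treated SCC15-labelled cells (43.2 CPM) stood near untreated CAL27 (39.2 CPM).

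By Euclidean distance over the 4 libraries, on log2 CPM centred per gene, the tested genes closest to CDKN1A were DHRS3, TLE6 and HSPG2, at 0.08, 0.10 and 0.12. DHRS3, a retinaldehyde reductase, had 544 against 293 reads in CAL27 and 375 against 52 in the SCC15-labelled line (adjusted p = 0.0411). HSPG2, the basement membrane proteoglycan perlecan, had 1742 against 908 and 1063 against 175 reads (adjusted p = 0.0139). TLE6, a Groucho-related corepressor, had 25 against 13 and 18 against 1 reads and did not pass (adjusted p = 0.525). Its SCC15-labelled ratio of 2.58 was lowered by the prior count of 2, and the closeness to CDKN1A rests on it. The wide interval of 1.25 to 9.29 is that of the raw counts without the prior count.

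The other CIP/KIP genes did not pass. CDKN1B (ENSG00000111276, chromosome 12, 12715058 to 12722371), whose product p27 holds back cyclin E with CDK2, had 677 reads in decitabine-treated CAL27 against 429 with DMSO. In the SCC15-labelled line it had 1352 against 1134 reads, which is level after scaling. The ratios were 0.50 (0.33 to 0.68) in CAL27 and -0.0079 (-0.12 to 0.11) in the SCC15-labelled line, and the shared fold was 0.24 ± 0.28 (adjusted p = 0.825). With total-count scaling the SCC15-labelled ratio turned to 0.0082. CDKN1C (ENSG00000129757, chromosome 11, 2883213 to 2885773), an imprinted gene read from the maternal copy, had 28 against 17 reads in CAL27 and 41 against 20 in the SCC15-labelled line. Its ratios of 0.52 and 0.72 had counting intervals that include 0 (-0.36 to 1.53 and -0.03 to 1.62), so a difference was not detectable at this depth (shared fold 0.67 ± 0.69, adjusted p = 0.796).

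Of the INK4 genes, CDKN2D had the largest fold. CDKN2D (ENSG00000129355, chromosome 19, 10566462 to 10569059), which encodes p19, had 212 reads in decitabine-treated CAL27 against 87 with DMSO, a log2 ratio of 1.11 (0.76 to 1.51). In the SCC15-labelled line it had 336 against 196 reads, a ratio of 0.51 (0.26 to 0.78). Both decitabine libraries lay above their DMSO library, and the shared fold of 0.81 ± 0.37 did not pass (adjusted p = 0.439). A log2 ratio of at least 1 was reached by CDKN2D alone in CAL27, where 5.14% of genes reached it and its value was 0.91 with the GC trend described below removed, and by CDKN1A alone in the SCC15-labelled line, where 13.2% did. No member was lower by that size, against 1.29% and 6.51% of genes.

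CDKN2A (ENSG00000147889, chromosome 9, 21967753 to 21995301) encodes p16 and, from the upstream start shown above, ARF, an inhibitor of the ubiquitin ligase MDM2; the counts do not separate the transcripts. It had 894 reads in decitabine-treated CAL27 against 562 with DMSO, and 5314 against 2884 in the SCC15-labelled line. The ratios of 0.51 (0.36 to 0.67) and 0.62 (0.55 to 0.69) have overlapping intervals, and the shared fold was 0.57 ± 0.28 (adjusted p = 0.49). CDKN2B (ENSG00000147883, chromosome 9, 22002903 to 22009363) encodes p15, which is induced by TGF-beta. It had 196 against 116 and 950 against 674 reads, with ratios of 0.59 (0.26 to 0.95) and 0.23 (0.09 to 0.38) and a shared fold of 0.41 ± 0.31 (adjusted p = 0.709). The antisense gene CDKN2B-AS1 (chosen after its values were seen) overlaps both. Its 22 against 11 reads in CAL27 and 27 against 43 in the SCC15-labelled line were far fewer than theirs, with ratios of 0.75 and -0.88. Whether the counting used strand is not given in the sources used here, so reads of the overlaps cannot be assigned with certainty. CDKN2C (ENSG00000123080, chromosome 1, 50960745 to 50974633), which encodes p18, had 508 against 371 and 503 against 342 reads, with ratios of 0.30 and 0.29 and a shared fold of 0.30 ± 0.31 (adjusted p = 0.801).

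**Figure D2:**
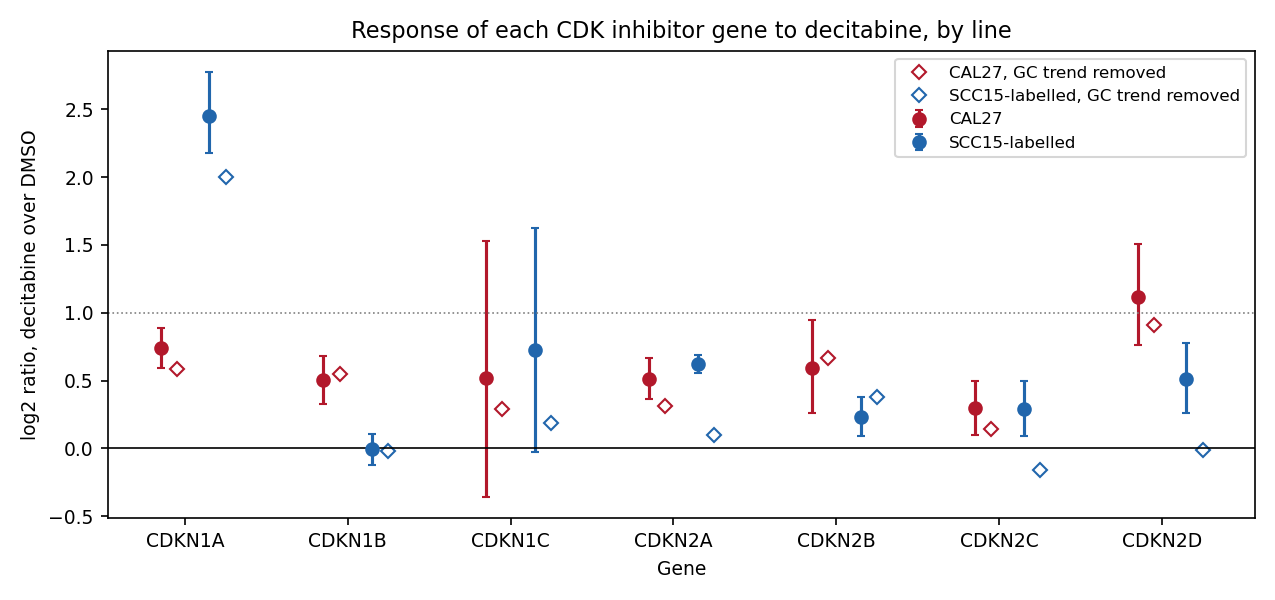
Log2 ratio of decitabine over DMSO (TMM-scaled CPM, prior count 2) for each gene in CAL27 and in the SCC15-labelled line; filled points carry exact 95% intervals for counting error, open diamonds the ratio after the trend with transcript GC was removed, and the dotted line marks a ratio of 1. CDKN1A at 2.45 in the SCC15-labelled line and CDKN2D at 1.11 in CAL27 are the filled points above it.

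Most of the 7 genes had ratios above 0, and transcript GC content moved with this. The fitted fold was above 0 for 7 of 7, as for 53.4% of tested genes, though that of CDKN2C was 0.02 with the GC trend of each library removed and -0.0086 with that of each line's ratio removed. In addition, the ratio was above 0 in both lines for 6 of 7, as for 31.0% of tested genes. CDKN1B was the exception, with a sign that turned under total-count scaling. The median ratio of the members was 0.52 in CAL27 and 0.51 in the SCC15-labelled line, against 0.00 and 0.05 over all tested genes. Over all genes the median ratio was -0.09 in CAL27 and -0.50 in the SCC15-labelled line in the lowest decile of transcript GC, and 0.23 and 0.58 in the highest. It was 0.19 and 0.58 in the ninth decile. CDKN1A, CDKN2A, CDKN2C and CDKN2D fell in that decile with 58.1% to 61.4% GC, CDKN1C in the highest with 63.8%, CDKN1B in the fifth and CDKN2B in the fourth. With the trend removed, 4 of 7 (CDKN1A, CDKN1C, CDKN2A and CDKN2B) were above 0 in both lines, against 30.3% of genes. The SCC15-labelled median of the members was then 0.10 and the CAL27 median 0.55. CDKN2A had 0.10 and CDKN2D -0.0100 in the SCC15-labelled line after this removal, while CDKN1A had 2.00. The shared fold of CDKN1A with the trend removed was 1.29 ± 0.27 (adjusted p = 0.00199 by edgeR). This call depends on how the spread is modelled: edgeR's prior degrees of freedom were 150 in that fit, against 36.1 without the removal. In limma on log2 CPM with the trend removed (chosen after seeing the data), CDKN1A had 1.32 ± 0.28 with a variance trend (adjusted p = 0.0113) and 1.32 ± 0.41 without one, where it did not pass (adjusted p = 0.537) and 0 genes were called.

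**Figure D3:**
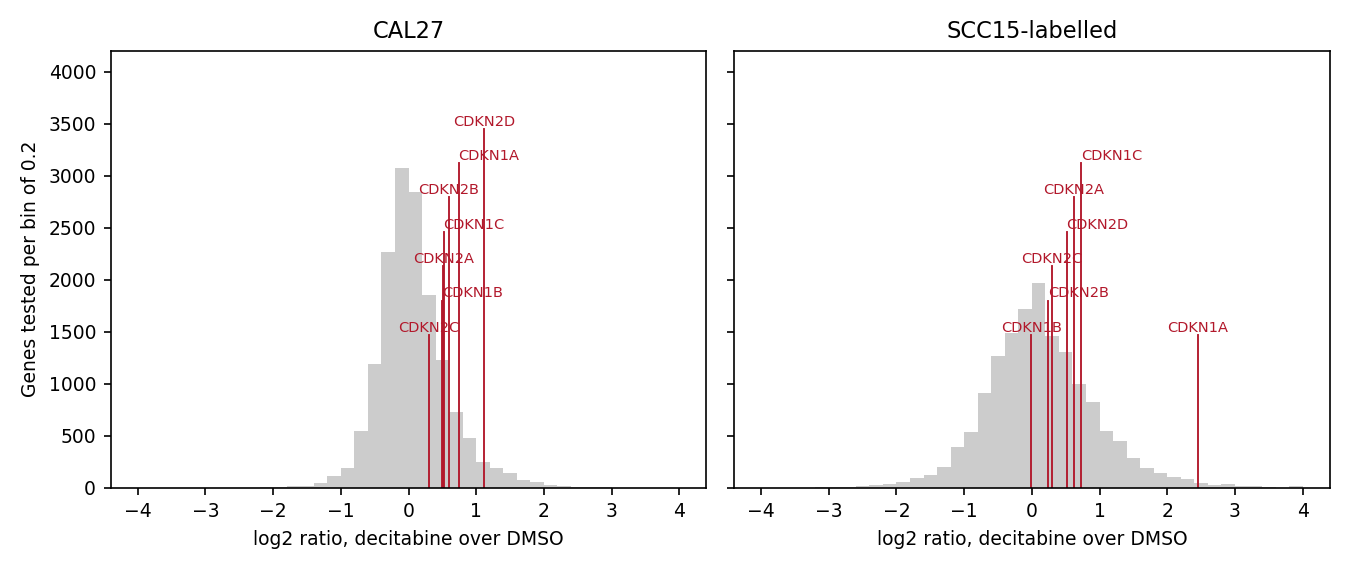
Number of tested genes by log2 ratio of decitabine over DMSO (grey bars, bins of 0.2, outermost bins hold all genes beyond) in CAL27 and in the SCC15-labelled line, with the members marked by vertical lines whose heights carry no value. In CAL27 the 7 genes lie between 0.30 and 1.11; in the SCC15-labelled line CDKN1A at 2.45 stands apart from the other 6, at -0.0079 to 0.72.

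Between the lines, averaged over treatments, 5 of the 7 genes differed, and CDKN2A and CDKN2B had the largest differences. The contrast was CAL27 over the SCC15-labelled line in the same fit, with the decitabine and DMSO libraries of a line as its replicates. CDKN2A was lower in CAL27 by 2.47 ± 0.30 on the log2 scale (adjusted p = 9.15e-09), which is 5.54-fold higher in the SCC15-labelled line, with 5.75-fold among decitabine libraries and 5.34-fold among DMSO libraries. CDKN2B, its neighbour on chromosome 9, was lower in CAL27 by 2.41 ± 0.33 (adjusted p = 1.00e-07). CDKN1B was lower by 1.20 ± 0.29 (adjusted p = 0.000753). CDKN2D was lower by 0.91 ± 0.37, close to the threshold (adjusted p = 0.0447), and did not pass under 5 of 8 alternatives. CDKN1A was higher in CAL27 by 1.43 ± 0.34 (adjusted p = 0.000801). Its log2 ratio was 0.60 among decitabine libraries and 2.33 among DMSO libraries, a gap that this SE does not show. CDKN2C (0.06 ± 0.31, adjusted p = 0.895) and CDKN1C (-0.40 ± 0.69, adjusted p = 0.675) did not pass. Of the 7 genes, 1 was thus higher and 4 were lower in CAL27, where 22.7% and 21.6% of tested genes were. INK4 genes summed to 37.3 and 22.6 FPKM in CAL27 with decitabine and DMSO, against 104 and 71.9 FPKM in the SCC15-labelled line, and by longest transcript to 72.8 and 45.2 FPKM, against 273 and 180 FPKM. Marker genes of other tissues differ between these libraries, as given above, and their part in the line difference was not tested.

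**Figure D4:**
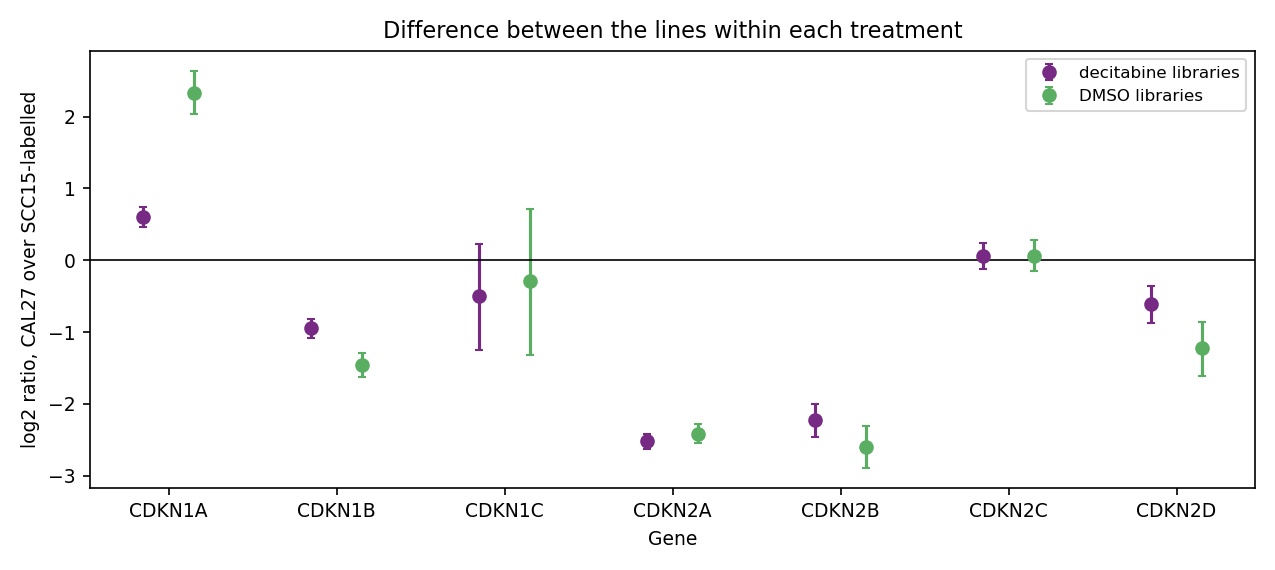
Log2 ratio of CAL27 over the SCC15-labelled line for each gene, among decitabine libraries and among DMSO libraries, with exact 95% intervals for counting error. CDKN2A and CDKN2B lie below -2 in both treatments, and CDKN1A lies at 0.60 among decitabine libraries and at 2.33 among DMSO libraries.

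The kinases and cyclins that the inhibitors bind did not pass the treatment test by edgeR, 0 of 12 in either direction, with list medians of -0.33 in CAL27 and 0.04 in the SCC15-labelled line. For this list and those below, DESeq2 and limma with either pseudocount also called 0 genes, apart from H19 as given below. Over all tested genes 0.544% passed as higher and 0.0778% as lower by edgeR. At those shares most lists of this size would hold 0 genes that pass. At an unadjusted p of 0.05, 1200 of 15427 genes were higher and 397 lower. CCND3, a D cyclin, had ratios of 0.08 in CAL27 and 1.14 in the SCC15-labelled line (shared fold 0.61 ± 0.30, adjusted p = 0.477) and was the 1 gene at an unadjusted p under 0.05, and CCNE2, an E cyclin, had -0.48 and -0.97 (-0.74 ± 0.42, adjusted p = 0.57). CCND1, the D cyclin most often amplified in these tumours and chosen after its values were seen, had 6792 against 11841 reads in CAL27 and 12663 against 7617 in the SCC15-labelled line. Its ratios were -0.96 and 0.47, with opposite signs. Among RB and E2F genes, the brake and the motor of S phase entry, 0 of 13 passed (medians -0.27 and -0.25). E2F7, a repressor E2F, had -0.68 and -0.91 (-0.80 ± 0.28, adjusted p = 0.258) and alone had an unadjusted p under 0.05, and E2F8 -0.25 and -0.59 (adjusted p = 0.736).

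Of 18 E2F target genes, which report on S phase entry, 0 passed, and 0 at an unadjusted p of 0.05. All 18 had a ratio below 0 in CAL27 (16 of 18 with total-count scaling, which moves every CAL27 ratio up by 0.14), where 48.6% of tested genes did. In the SCC15-labelled line 7 of 18 did, as did 44.7% of tested genes. The list medians were -0.39 and 0.04, and -0.40 and -0.12 with the GC trend removed, so the SCC15-labelled sign depends on it. RRM2, the ribonucleotide reductase subunit, had -0.32 and -0.77 (-0.54 ± 0.29, adjusted p = 0.522), and MCM6, a helicase subunit, had -0.50 and -0.38 (adjusted p = 0.63).

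**Figure D5:**
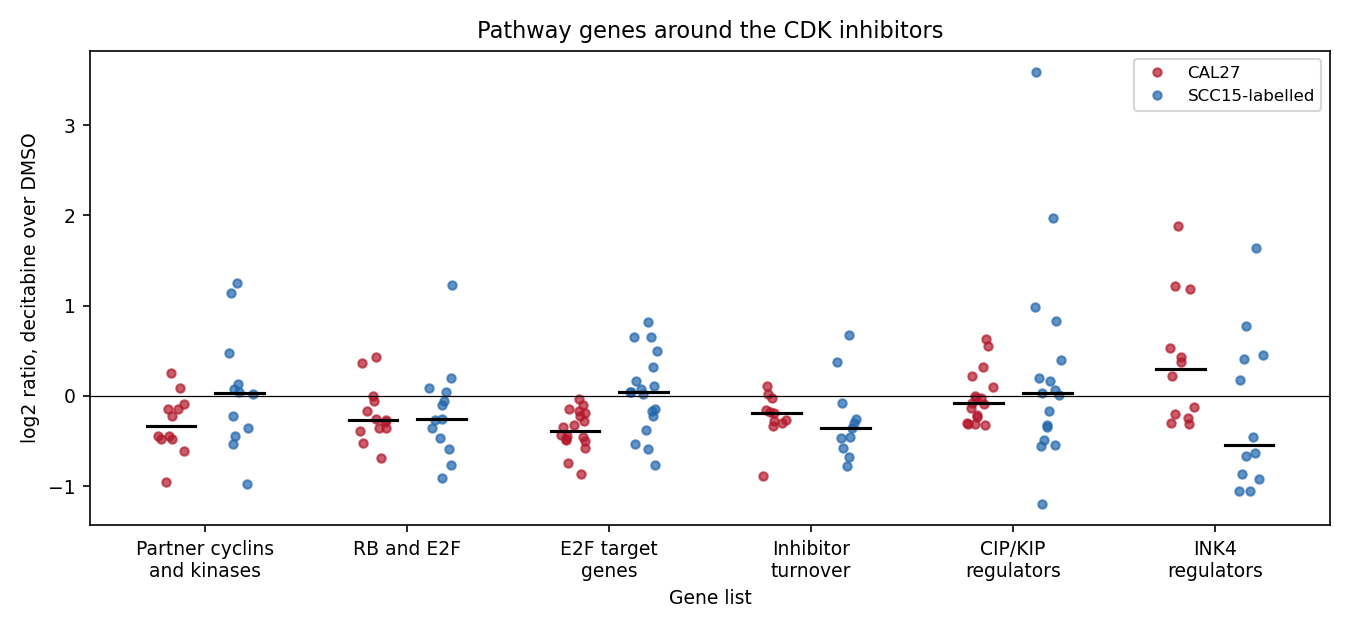
Log2 ratio of decitabine over DMSO for the tested genes of 6 lists, in CAL27 and in the SCC15-labelled line; 1 point per gene, black bars are list medians. The 18 E2F target genes lie below 0 in CAL27 (16 of 18 with total-count scaling), with a median of -0.39, while the SCC15-labelled points of that list lie on both sides of 0.

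Genes listed as acting on the inhibitors, directly or through other proteins, did not pass either. Of all tested genes 0.544% passed as higher and 0.0778% as lower. Of 11 genes for turnover of the inhibitor proteins 0 passed (medians -0.20 and -0.36), with DTL, the ubiquitin ligase subunit that marks p21 in S phase, at -0.89 and -0.30 (-0.60 ± 0.29, adjusted p = 0.474) and the deubiquitinase USP2 at 29 against 32 and 4 against 7 reads. Of 17 transcription regulators of CIP/KIP genes 0 passed (medians -0.07 and 0.03), with FOXO4, a forkhead factor, at 0.55 and 1.98 (1.23 ± 0.49, adjusted p = 0.338) and MDM4, a partner of MDM2, at -0.07 and -1.20 (adjusted p = 0.483). Of 12 regulators of INK4 genes 0 passed (medians 0.30 and -0.55), with CBX7, a Polycomb protein that silences the INK4 locus, at 0.53 and 1.64 (1.04 ± 0.41, adjusted p = 0.334) and ID3, an inhibitor of helix-loop-helix factors, at 1.18 and 0.41 (adjusted p = 0.303). The other Polycomb genes of the list, given after their values were seen, did not share the direction of CBX7 as a group. EZH2 (-0.31 and -0.67), SUZ12 (-0.20 and -0.87) and EED (-0.25 and -0.92) were below 0 in both lines. CBX8 (0.43 and 0.17) was above 0 in both, and BMI1 had 0.22 and -1.06. With the GC trend of each library removed, the shared fold went from -0.49 to -0.31 for EZH2 and from -0.53 to -0.23 for SUZ12. It went from -0.59 to -0.16 for EED, from -0.43 to -0.16 for BMI1, from 0.30 to 0.03 for CBX8 and from 1.04 to 0.75 for CBX7. ID1 and ID2, related to ID3 (chosen after their values were seen), had opposite signs in the lines. ID1 had 892 against 216 reads in CAL27 and 2194 against 2841 in the SCC15-labelled line, ratios of 1.88 and -0.63 (adjusted p = 0.625). ID2 had 34 against 12 and 379 against 659 reads, ratios of 1.22 and -1.06 (adjusted p = 0.912). At an unadjusted p of 0.05, DTL of the turnover list was lower, and FOXO4, CBX7 and ID3 of the regulators were higher, with no other gene of these 3 lists. Over all 15427 tested genes, 1200 (7.78%) were higher and 397 lower at that p, a share like that in these lists. With the GC trend removed, the list medians in CAL27 and the SCC15-labelled line were -0.22 and -0.16 for turnover. They were -0.03 and -0.07 for regulators of CIP/KIP genes, and 0.23 and -0.33 for regulators of INK4 genes.

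Neighbours on the chromosomes were read beside the members. At 9p21, 0 of 4 tested genes passed, and 0 at an unadjusted p of 0.05. MTAP, the methionine salvage gene next to CDKN2A, had 945 against 991 reads in CAL27 and 1107 against 1187 in the SCC15-labelled line, ratios of -0.22 and -0.36 (adjusted p = 0.771). IFNE, an epithelial interferon, had 14 against 13 and 7 against 17 reads (adjusted p = 0.821). At 11p15 around CDKN1C, 1 of 7 tested genes passed, as higher, the imprinted noncoding RNA H19. It had 44 against 3 reads in CAL27 and 205 against 0 in the SCC15-labelled line (adjusted p = 0.000738 by edgeR). Ratios were above 0 in both lines for 3 of the 7, as for 31.0% of all tested genes. The medians of this list were 0.28 in CAL27 and 0.27 in the SCC15-labelled line, and 0.06 and -0.21 with the GC trend removed. H19 also passed with limma on log2(FPKM + 0.1), and not with DESeq2 or on log2(FPKM + 1). The 3 genes with a like name that do not belong to the families did not pass, nor at an unadjusted p of 0.05, with CDKN3, a phosphatase of CDK2, at -0.31 and -0.38 (adjusted p = 0.719) and CDKN2AIP at -0.27 and -0.60 (adjusted p = 0.713).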

How the data were processed

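The tools were HTSeq 0.13.5 and HISAT2 with build GRCh38, per the submitters' processing notes; aligner settings, annotation release and the strand setting were not given in the sources. The authors deposited whole-number read counts per gene and FPKM values for 4 libraries, and the FPKM follow from the counts with a constant gene length. Coordinates and the GC of each gene's longest transcript came from GENCODE release 29, in which all 51103 identifiers were found. Where a name stood on several identifiers, the one with most reads was kept.

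Counts were tested in R 4.3.3 with edgeR 4.0.16 (filterByExpr on treatment with minimum count 10 and minimum total 15, TMM, quasi-likelihood F test with terms for line and treatment, 15427 genes, threshold 0.05 after Benjamini-Hochberg adjustment). The pairing comes from the labels, which give the same line under both treatments; libraries of a line correlated at r = 0.983 and 0.963 across genes, and across lines at most at 0.73. With 1 residual degree of freedom per gene, the spread comes mostly from other genes (36.1 prior degrees of freedom), so an SE says little of how unlike a gene's responses were in both lines. Nothing says the libraries were independent cultures, so p-values speak for these samples only, and the spread they use is mostly that of other genes. On simulated counts over 15427 genes, the shared treatment test recovered 17% of 100 genes changed 2-fold and 86% of 100 changed 4-fold, with 0 false calls. Every simulated gene had a dispersion of 0.05, and each changed gene had the same fold in both lines. Responses here differed between the lines, as for CDKN1A, so these rates may not hold for these data. Ratios within a line have no test. Their 95% intervals are exact conditional binomial on the raw counts, while the ratios carry a prior count of 2. A size of at least 1 with CPM of at least 1 in either library was counted. The GC trend was a lowess curve (span 0.3).

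DESeq2 1.42.0, limma 3.58.1 on log2 FPKM with pseudocounts of 1 and 0.1, other scalings and filters were alternatives. Named pathway genes are those that passed or else the 2 largest folds of each list, with the 3 genes nearest to the member of largest fold. Members and lists were chosen with earlier results of these data known. Some listed genes are not reported here.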

Additional observations from a re-analysis of the deposited data

Results flagged for a closer look

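Ratios of decitabine over DMSO with opposite signs in the lines were picked out. Each line has 1 library per treatment, so the difference between lines was not tested. Of 94 tested genes of the pathway lists, 45 (47.9%) had opposite signs, against 38.4% of all tested genes. In 21 of the 45 both counting intervals exclude 0 and every library has reads, a rule set after their values were seen, and 20 of them are given here. The share of all tested genes that meets this rule was not computed. The intervals cover counting error only and narrow with more reads, so ratios as small as those of CKS1B meet the rule. The ratios of these 20 genes are given without removal of the GC trend. In the SCC15-labelled line the genes poorest in GC (decile 1) had a median ratio of -0.50, and the richest (decile 10) 0.58. Several SCC15-labelled ratios below are smaller in size than these medians. Whether the opposite signs hold with the trend removed was not tested. Among cyclins and kinases, CDK1 had 0.25 in CAL27 and -0.45 in the SCC15-labelled line, CDK6 -0.61 and 0.13, and CCND1 -0.96 and 0.47. Among RB and E2F genes, E2F2 had -0.52 and 1.23, E2F6 0.43 and -0.25, and TFDP2 -0.39 and 0.20. Among E2F targets, MCM2 had -0.48 and 0.65, TYMS -0.74 and 0.32, CDC25A -0.86 and 0.17, and MYBL2 -0.28 and 0.66. Among genes of protein turnover, CKS1B had 0.11 and -0.078, DDB1 -0.20 and 0.67, and CDC20 -0.15 and 0.38. Among regulators, SP1 had -0.31 and 0.40, BMI1 0.22 and -1.06, ETS1 -0.30 and 0.45, ID1 1.88 and -0.63, and ID2 1.22 and -1.06. TSSC4 near CDKN1C had -0.36 and 0.33, and CDKN2AIPNL -0.17 and 0.20. CDKN1B, the 1 member with opposite signs, had 0.50 and -0.0079, where the SCC15-labelled interval of -0.12 to 0.11 includes 0. CDKN2B-AS1 had 0.75 and -0.88, and its CAL27 interval of -0.26 to 2.04 includes 0. Groups of 1 library allow no check for a sample far from the others.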

How the results depend on the processing

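The count of genes called with treatment was 84 higher and 12 lower. It was 313 and 21 with total-count scaling, 155 and 21 with no filter, 131 and 24 with the GC trend of each library removed, 146 and 33 with the GC trend of each line's ratio removed (chosen after seeing the data), 1 and 1 with limma on log2(FPKM + 1), 0 and 0 with the GC trend of each library removed and limma on log2 CPM without a variance trend (also chosen after seeing the data, with 941 and 304 at an unadjusted p of 0.05), 27 higher with DESeq2, and 0 and 0 without the replicate block, where an unadjusted p of 0.05 gave 20 and 3. The CDKN1A shared log2 fold was 1.60 with DESeq2, 1.46 with limma on log2(FPKM + 1), 1.32 with GC-corrected limma without a variance trend and 1.21 without the block by line, all past the threshold no longer; the block changed no other call among the members. Leaving out a line's pair leaves the ratio of the other line, a value with no test: 0.74 to 2.45 for CDKN1A, -0.0079 to 0.50 for CDKN1B, 0.52 to 0.72 for CDKN1C, 0.51 to 0.62 for CDKN2A, 0.23 to 0.59 for CDKN2B, 0.29 to 0.30 for CDKN2C and 0.51 to 1.11 for CDKN2D. The CDKN2C shared fold was 0.02 with the GC trend of each library removed and -0.0086 with that of each line's ratio removed. The line difference of CDKN2D did not pass with DESeq2 (-0.89), limma on log2(FPKM + 1) (-0.67), no filter (-0.93), RLE scaling (-0.89) and total-count scaling (-0.76); total-count scaling moved the median line difference of all genes from 0.00 to 0.15. With the GC trend removed, ratios left their counting interval for CDKN1A (0.59 in CAL27, 2.00 in the SCC15-labelled line), CDKN2A (0.31 and 0.10), CDKN2C (-0.16, SCC15-labelled) and CDKN2D (-0.0100, SCC15-labelled). The cause was not tested. CDKN1C left the test under the filter of 30 reads in 2 libraries, and DESeq2 gave it no adjusted p. Depth limits CDKN1C most, with 17 to 41 reads per library.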
